A study of Rattus norvegicus and Mus musculus with 18 samples.

Results

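The genes described here are the semaphorins and their plexin and neuropilin receptors, the ephrins and Eph receptors, the Slits and Robos, and netrins 1 and 4, compared between mouse wound epidermis and the wound dermis beneath it. Members are the protein-coding genes whose symbol starts with Sema3 to Sema7, Plxna to Plxnd, Efna, Efnb, Epha or Ephb, together with Nrp1, Nrp2, Slit1 to Slit3, Robo1 to Robo4, Ntn1 and Ntn4. The rule found 62 of the 49548 genes in the mouse table. The study profiled RNA by SMART-seq2, which copies polyadenylated RNA into full-length cDNA, in skin of adult mice and rats, and 6 of its 18 libraries are mouse. These are 3 wound dermis and 3 wound epidermis libraries, both taken 1 day after the scab came off. The labels give no strain, sex, genotype or treatment for the mice beyond the skin wound, and no unwounded mouse skin was analysed here. The labels do not state whether each library is from its own animal, so p-values here reflect library-to-library spread only, and that spread may be technical.

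Guidance genes were first described as the cues that steer growing axons, and skin uses the same proteins where cells touch, sort or repel each other and where nerves and vessels grow. Secreted class 3 semaphorins act mainly through neuropilins paired with A plexins, while the membrane-bound semaphorins bind plexins directly. Ephrins sit on one cell and Eph receptors, a large family of receptor tyrosine kinases, on the next, and both sides can signal. Slits are secreted and bind Robo receptors, and netrins bind receptors of the DCC and UNC5 families.

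Levels are in TPM, a measure of transcript abundance corrected for gene length and scaled to one total in every library, so levels of different genes can be compared within a library. The read depth behind them is unknown. Wound dermis libraries held 15958 to 16257 genes at 1 TPM or more and wound epidermis libraries 13117 to 14012. The tissue labels fitted their markers: all 7 fibroblast and all 7 endothelial markers were lower in epidermis, and all 5 basal and all 8 differentiated keratinocyte markers were higher. Wound dermis replicate 2 stood apart, with differentiated keratinocyte markers at a median of 23.9% of their epidermis mean, against 1.13% in replicate 1 and 0.66% in replicate 3. Basal keratinocyte markers stood at 39.6%, 15.0% and 3.03% in dermis replicates 2, 1 and 3. Lymphatic, pericyte, macrophage and Schwann cell markers that were tested were all lower in epidermis, as was 1 of 4 T cell markers. In whole tissue, fewer cells of a type and less RNA per cell cannot be told apart.

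Differences were tested with limma on log2(TPM + 1) across the 15982 genes that reached 1 TPM in 3 or more of the 6 libraries, and a gene was called at an adjusted p under 0.05. Of the 62 guidance genes, 50 entered the test. Of these, 10 were higher in epidermis and 26 lower, against 17.0% higher and 39.3% lower among all genes tested. The called share was 20.0% higher and 52.0% lower among the tested guidance genes. In either direction 36 of 50 were called, against 56.3% of all tested genes, and 30 were called with a change of at least 1 on the log2 scale, against 43.5%. All epidermis libraries lay above all dermis libraries for 11 of the 50, against 20.8% of tested genes, and below them for 30, against 45.3%. Their median log2 fold change was -1.02, and that of all tested genes was -0.42. These shares describe only genes that passed the filter. A gene found in dermis alone passed it through the dermis libraries, and 16 of the 50 had no epidermis library at 1 TPM, all of them called lower. Among all tested genes, 12.3% had none. Median-of-ratios scaling, with the filter applied to the rescaled values, gave 13 higher and 21 lower guidance genes. Of the 5 lower calls it lost, Efna5, Efnb2 and Sema3c did not pass, and Ntn4 and Sema6c no longer entered the test. Quantile normalization also gave 13 and 21. All 10 genes called higher kept that call under both scalings. These included Efna4, Epha4, Sema4d and Sema3e, whose calls were lost without some single libraries. Over all genes, 30.2% of calls were higher with TPM as deposited, 48.3% with median-of-ratios scaling and 52.8% with quantile normalization. No called guidance gene changed direction among the 34 of 36 tested under median-of-ratios scaling or the 36 tested under quantile normalization.

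**Figure D1:**
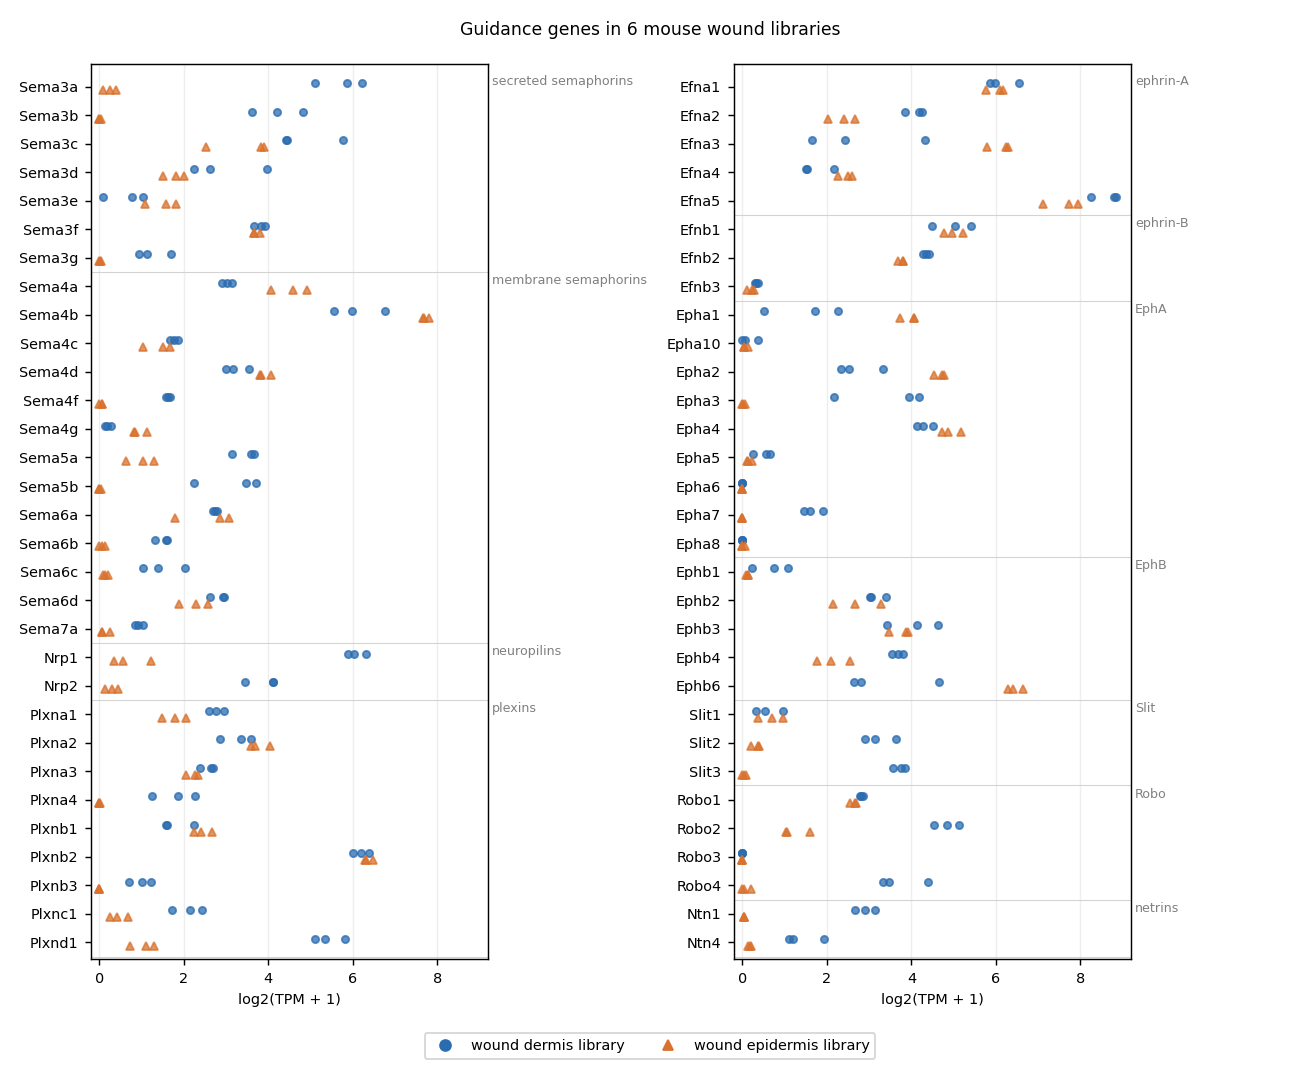
Level of each of the 62 guidance genes as log2(TPM + 1), with each wound dermis library as a circle and each wound epidermis library as a triangle, grouped by class. Nrp1, Sema3a and Plxnd1 have dermis and epidermis libraries far apart, while Plxnb2, Efna1 and Sema3f overlap between tissues.

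Among the secreted semaphorins, 3 of 6 tested genes were lower in epidermis and 1 was higher, against 39.3% lower and 17.0% higher among all tested genes. Sema3a, which repels sensory axons and acts through Nrp1, stood at 73.0, 57.3 and 33.4 TPM in dermis replicates 1 to 3 and at 0.06, 0.19 and 0.31 TPM in the epidermis replicates. The groups were far apart, although the dermis libraries themselves differed. The log2 fold change was -5.48 ± 0.31 (SE, n = 3 each, limma adjusted p = 2.0e-05). Sema3b stood at 17.4, 11.3 and 27.4 TPM in dermis and at 0.02, 0 and 0 TPM in epidermis, a log2 fold change of -4.21 ± 0.31 (limma adjusted p = 5.5e-05). Both genes were thus near the bottom of the scale in all epidermis libraries.

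Sema3c stood at 20.3, 20.8 and 53.9 TPM in dermis and at 14.01, 4.74 and 13.2 TPM in epidermis, a log2 fold change of -1.46 ± 0.51 (limma adjusted p = 0.042). Dermis replicate 3 was the high library, and without it the value was -1.01 (adjusted p = 0.12). The call was also lost without epidermis replicate 2 (-1.01, adjusted p = 0.11), without dermis replicate 1 (adjusted p = 0.058), and, by a hair, without epidermis replicate 1 or 3 (adjusted p = 0.0501 and 0.0507). Rescaling ended the call as well, with -1.02 (adjusted p = 0.094) by median of ratios and -1.01 (adjusted p = 0.092) by quantiles. Sema3d showed the same high dermis library at 5.09, 3.72 and 14.6 TPM, against 1.85 to 3.0 TPM in epidermis, and did not pass (-1.16, adjusted p = 0.058). Without dermis replicate 2 it did (-1.51, adjusted p = 0.025), while without the high dermis replicate 3 the value was -0.65 (adjusted p = 0.084) and without epidermis replicate 2 it was -1.03 (adjusted p = 0.15). Dermis replicate 3 was also the highest dermis library in summed Schwann cell markers, at 72.9 TPM against 8.83 and 35.3 TPM in replicates 1 and 2. The same held for macrophage markers (1136 against 757 and 657 TPM) and T cell markers (56.0 against 45.3 and 37.6 TPM). Skeletal muscle markers summed to 17.1 TPM there against 0.43 and 0.80 TPM, most of it Acta1 at 15.75 TPM. All fibroblast markers but Col1a1 were also highest in dermis replicate 3, such as Dpt at 1543, 1649 and 3813 TPM in replicates 1 to 3. Col1a1 stood at 38002, 23600 and 34097 TPM. The part of these cell types in the Sema3c and Sema3d levels was not tested.

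Sema3f, which acts mainly through Nrp2, stood at 11.6, 14.1 and 13.2 TPM in dermis and 11.6, 11.7 and 12.9 TPM in epidermis, and the groups overlapped (log2 fold change -0.10 ± 0.18, limma adjusted p = 0.68). Sema3e, which binds plexin-D1 without a neuropilin, was low throughout, at 0.06, 0.70 and 1.03 TPM in dermis and 1.97, 2.54 and 1.11 TPM in epidermis. It passed at 0.87 ± 0.31 (limma adjusted p = 0.045), but not without dermis replicate 1 (0.60, adjusted p = 0.12) or 2 (0.94, adjusted p = 0.064) or without epidermis replicate 1 (0.83, adjusted p = 0.12) or 2 (0.70, adjusted p = 0.14). Sema3g did not enter the test, with 0.92 to 2.23 TPM in dermis and at most 0.02 TPM in epidermis. Summed over the class, secreted semaphorins held 128 ± 18.5 TPM in dermis against 27.2 ± 5.43 TPM in epidermis (SD, n = 3 each). Sema3a held 44.1% ± 18.5 of that sum in dermis and 0.71% ± 0.45 in epidermis, where Sema3f held 45.4% ± 9.15 and Sema3c 37.4% ± 12.9.

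The receptors for these ligands were also unequal. Nrp1, a co-receptor for class 3 semaphorins and for vascular endothelial growth factor, stood at 78.2, 57.7 and 64.7 TPM in dermis and 0.46, 0.28 and 1.34 TPM in epidermis. Its log2 fold change was -5.36 ± 0.28 (limma adjusted p = 1.6e-05). Nrp2, which also serves lymphatic growth, stood at 16.2, 9.88 and 16.2 TPM in dermis and 0.22, 0.09 and 0.36 TPM in epidermis (-3.60 ± 0.25, limma adjusted p = 3.9e-05). The epidermis mean was 1.04% of the dermis mean for Nrp1 and 1.58% for Nrp2. The 7 endothelial markers moved the same way, summing to 261 to 409 TPM in dermis and 4.63 to 10.8 TPM in epidermis, and the 7 fibroblast markers summed to 44100 to 68600 TPM in dermis and 9.79 to 104 TPM in epidermis. No endothelial or fibroblast marker was at 0 in all epidermis libraries. The part of either cell type in the neuropilin result was not tested.

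Of 8 tested plexins, 4 were lower in epidermis and 0 higher, against 39.3% lower and 17.0% higher among all tested genes. Plxnd1, a receptor of blood vessel endothelium, stood at 54.9, 33.2 and 39.6 TPM in dermis and 1.15, 1.45 and 0.65 TPM in epidermis (-4.38 ± 0.27, limma adjusted p = 2.4e-05). Plxna1, a partner of the neuropilins, stood at 5.80, 5.03 and 6.67 TPM in dermis and 2.45, 1.81 and 3.14 TPM in epidermis (-0.99 ± 0.22, limma adjusted p = 0.0080), and did not pass under quantile normalization (-0.27, adjusted p = 0.30). Plxna4 and Plxnc1 had dermal means of 2.61 and 3.36 TPM and epidermis means of 0.003 and 0.37 TPM, with log2 fold changes of -1.79 and -1.65. All epidermis libraries lay below all dermis libraries for these 4 genes and for Plxna3, which did not pass, against 45.3% of all tested genes. For Plxna2, which did not pass either, they all lay above, against 20.8%.

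Plxnb2, the most abundant plexin of both tissues, stood at 72.4, 62.9 and 82.7 TPM in dermis and 77.1, 88.3 and 78.8 TPM in epidermis. The groups overlapped and it did not pass (0.17 ± 0.19, limma adjusted p = 0.48), though it did after median-of-ratios scaling (0.64, adjusted p = 0.034). It held 50.4% ± 4.96 of the plexin sum in dermis and 76.6% ± 3.50 in epidermis, while Plxnd1 held 29.2% ± 4.85 and 1.02% ± 0.36. Plxna2 stood at 9.13, 10.98 and 6.21 TPM in dermis and 15.3, 11.1 and 11.9 TPM in epidermis (0.52 ± 0.26, limma adjusted p = 0.13) and passed when rescaled by median of ratios (0.95, adjusted p = 0.015) or quantiles (1.05, adjusted p = 0.010). Plxnb1, the receptor of Sema4d, did not pass either (0.62, adjusted p = 0.074), but passed under both scalings (0.98, adjusted p = 0.0091, and 1.35, adjusted p = 0.0022) and without dermis replicate 2 (0.84, adjusted p = 0.023).

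Of 11 tested membrane semaphorins, Sema4a, Sema4b and Sema4d were higher in epidermis, and Sema4f, Sema5a, Sema5b, Sema6b and Sema6c were lower. Sema4c, Sema6a and Sema6d did not pass. The called share was 27.3% higher and 45.5% lower, against 17.0% and 39.3% of all tested genes. Sema4b, which carries a cytoplasmic tail ending in a PDZ-binding motif, stood at 62.2, 107 and 46.4 TPM in dermis and 223, 204 and 202 TPM in epidermis (1.62 ± 0.31, limma adjusted p = 0.0041). Sema4a, best known from immune cells, stood at 6.44, 7.14 and 7.88 TPM in dermis and 23.2, 29.2 and 15.8 TPM in epidermis (1.5 ± 0.26, limma adjusted p = 0.0025). Every epidermis library lay above every dermis library for both genes and for Sema4d, against 20.8% of all tested genes.

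Sema4d, a ligand of plexin-B1 that can be shed from the cell, stood at 7.93, 10.7 and 6.92 TPM in dermis and 13.0, 15.8 and 13.2 TPM in epidermis (0.67 ± 0.22, limma adjusted p = 0.036). The difference was small, and its call was lost without any library other than dermis replicate 2, with adjusted p from 0.059 without epidermis replicate 3 to 0.11 without dermis replicate 3. Sema5a stood at 11.02, 11.7 and 7.74 TPM in dermis and 1.05, 0.55 and 1.43 TPM in epidermis (-2.48 ± 0.26, limma adjusted p = 0.00026). Sema5b stood at 10.1, 12.0 and 3.69 TPM in dermis and 0, 0.03 and 0 TPM in epidermis (-3.12 ± 0.38, limma adjusted p = 0.00054). Both class 5 genes, which carry thrombospondin repeats beside the semaphorin domain, had no epidermis library near the dermal range. Sema4f, Sema6b and Sema6c were lower by 1.33 to 1.58 on the log2 scale from dermis means of 1.82 to 2.07 TPM. Their epidermis means were 0.03, 0.05 and 0.11 TPM, and at such levels the added 1 TPM shrinks the log2 fold change. Sema6c did not pass under quantile normalization (-0.46, adjusted p = 0.26).

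Because Sema4b was so abundant, the class as a whole summed to 127 ± 38.2 TPM in dermis and 259 ± 16.4 TPM in epidermis. Sema4b held 55.0% ± 7.43 of that sum in dermis and 80.9% ± 2.54 in epidermis. Its epidermis mean of 210 ± 11.5 TPM was the highest of the 62 genes, close to the 197 ± 54.8 TPM of Efna5, which was the higher of the pair in epidermis replicate 3.

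**Figure D2:**
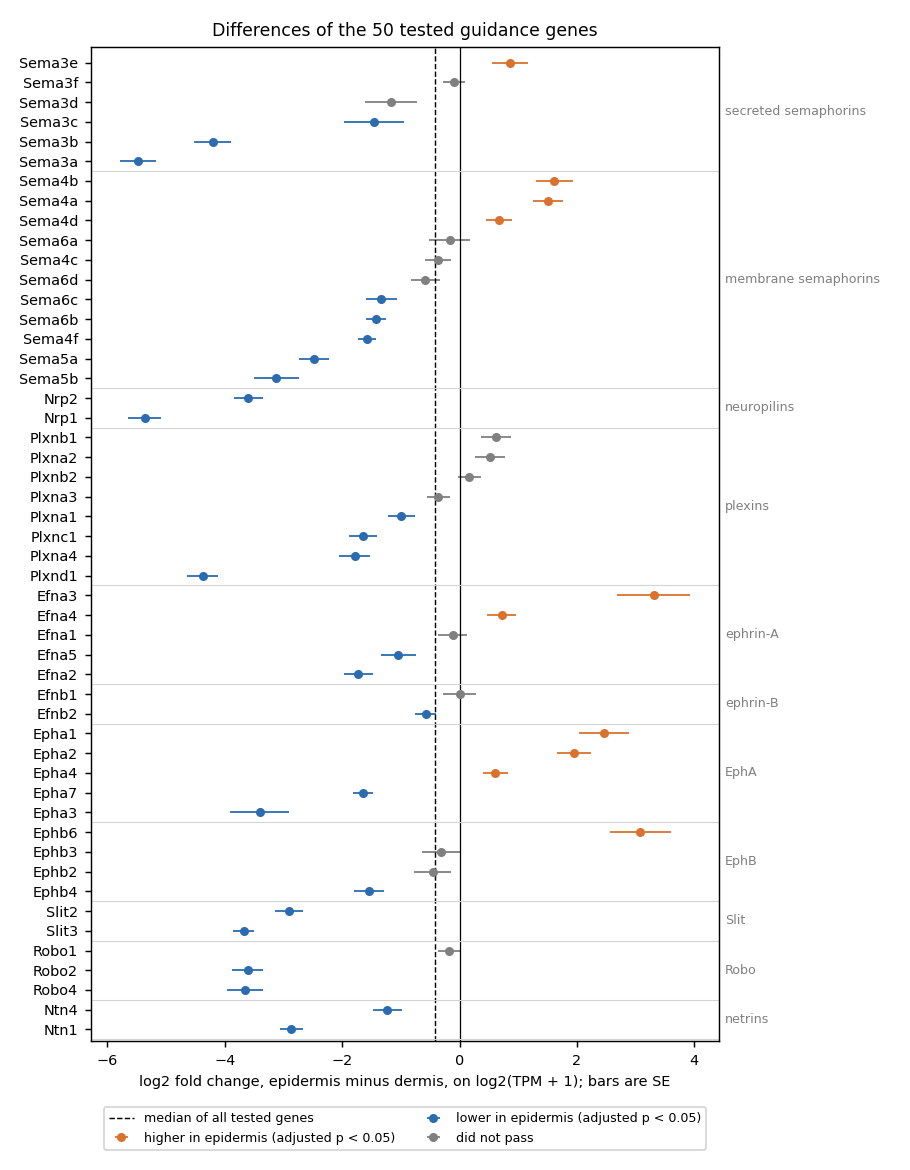
Log2 fold change of epidermis over dermis, on log2(TPM + 1), for the 50 tested guidance genes, with bars for the SE and n = 3 libraries in each group, and a dashed line for the median of all tested genes at -0.42. Nrp1 at -5.36 and Sema3a at -5.48 lie farthest to the left, and Efna3 at 3.31 and Ephb6 at 3.08 farthest to the right.

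The ephrin-A ligands, which are held on the cell surface by a lipid anchor, did not move together. Efna5 was the most abundant guidance gene of dermis, at 456, 444 and 305 TPM against 210, 137 and 244 TPM in epidermis (-1.04 ± 0.29, limma adjusted p = 0.019). The groups did not overlap, but the call was lost without dermis replicate 1 (-0.94, adjusted p = 0.066) and after median-of-ratios scaling (-0.57, adjusted p = 0.077). Efna2 stood at 17.2, 13.3 and 18.0 TPM in dermis and 4.33, 3.06 and 5.36 TPM in epidermis (-1.72 ± 0.24, limma adjusted p = 0.0011). Efna3 went the other way, at 4.38, 18.9 and 2.14 TPM in dermis and 77.2, 54.3 and 74.3 TPM in epidermis (3.31 ± 0.63, limma adjusted p = 0.0038). Dermis replicate 2 was its high dermal library, and without it the value was 4.06.

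Efna1 stood at 61.9, 92.4 and 56.7 TPM in dermis and 67.0, 53.2 and 71.0 TPM in epidermis, with overlapping groups (-0.12 ± 0.25, limma adjusted p = 0.71). Efna4 was low at 1.82, 1.86 and 3.48 TPM in dermis and 4.99, 4.62 and 3.76 TPM in epidermis, and passed at 0.72 ± 0.25 (limma adjusted p = 0.043). It did not pass without dermis replicate 1 or 2 (adjusted p = 0.13 and 0.11) or without epidermis replicate 1, 2 or 3 (0.13, 0.099 and 0.053). Efna1, Efna3 and Efna4 are neighbours on mouse chromosome 3, with gaps of 32.8 kb and 10.4 kb and no other protein-coding gene between them. Of these neighbours, Efna3 and Efna4 were called higher and Efna1 was not called. The difference between them was not tested. The ephrin-A class summed to 499 ± 99.9 TPM in dermis and 338 ± 76.5 TPM in epidermis. Efna3 held 1.56% ± 1.52 of that sum in dermis, or 0.68% without dermis replicate 2, and 20.5% ± 1.58 in epidermis.

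Among the ephrin-B ligands, which span the membrane, Efnb1 stood at 21.5, 31.8 and 41.9 TPM in dermis and 30.1, 26.4 and 36.1 TPM in epidermis, where every value lay inside the dermal range (0.00 ± 0.28, limma adjusted p = 1.00). Efnb2, known as a marker of arterial endothelium, stood at 18.3, 20.4 and 19.4 TPM in dermis and 13.0, 11.8 and 13.0 TPM in epidermis (-0.58 ± 0.18, limma adjusted p = 0.026). Its groups did not overlap, but the difference was close to the median of all genes. It did not pass without dermis replicate 1, 2 or 3 (adjusted p = 0.052, 0.067 and 0.069) or epidermis replicate 1 (0.080), nor when rescaled by median of ratios (-0.13, adjusted p = 0.52) or quantiles (-0.15, adjusted p = 0.47). Efnb3 stayed at or below 0.29 TPM in all 6 libraries.

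The EphA receptors divided between the tissues, with 3 of 5 tested genes higher in epidermis and 2 lower. Among all tested genes, 17.0% were higher and 39.3% lower. Epha2, an epithelial receptor found in keratinocytes, stood at 4.02, 9.02 and 4.73 TPM in dermis and 22.0, 26.5 and 25.5 TPM in epidermis (1.95 ± 0.29, limma adjusted p = 0.0014). Epha1, the first Eph receptor to be cloned and one found in epidermis, stood at 2.28, 3.76 and 0.43 TPM in dermis and 15.7, 12.3 and 15.8 TPM in epidermis (2.46 ± 0.43, limma adjusted p = 0.0027). Both had dermis replicate 2 as their highest dermal library.

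Epha1 shares 236 of its 3928 exon bases with the oppositely oriented gene Zyx, whose mean was 44.4 TPM in dermis against 4.33 TPM in epidermis. How far Zyx reads entered the Epha1 values was not tested. Epha4, which binds ephrins of both classes, stood at 21.8, 16.6 and 18.5 TPM in dermis and 28.3, 35.1 and 25.5 TPM in epidermis (0.61 ± 0.21, limma adjusted p = 0.041). Its call was lost without dermis replicate 2 (0.52, adjusted p = 0.10) or 3 (0.60, adjusted p = 0.10), and without epidermis replicate 1 (0.64, adjusted p = 0.10) or 2 (0.49, adjusted p = 0.089). By its mean level Epha4 was the leading EphA receptor of both tissues, with 45.9% ± 3.52 of the class sum in dermis and 42.7% ± 4.63 in epidermis. In epidermis replicate 3 Epha2 was marginally the higher, at 25.53 TPM against 25.47 TPM.

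Epha3, which binds ephrin-A5, stood at 14.3, 3.49 and 17.1 TPM in dermis and at 0.01, 0.04 and 0 TPM in epidermis (-3.40 ± 0.50, limma adjusted p = 0.0013). Dermis replicate 2 was the low library, and without it the value was -4.03. Epha7 stood at 1.73 to 2.73 TPM in dermis and was listed at 0 in all 3 epidermis libraries (limma adjusted p = 0.00031). Epha5, Epha6, Epha8 and Epha10 stayed at or below 0.58 TPM in every library. Epha3 held 26.9% ± 15.1 of the class sum in dermis. In epidermis, Epha2 held 35.7% ± 2.44 and Epha1 21.3% ± 4.10.

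Ephb6, an Eph receptor that lacks kinase activity, gave the second largest rise of the 50 tested genes, after Efna3. It stood at 5.99, 24.1 and 5.22 TPM in dermis and 83.8, 98.3 and 77.5 TPM in epidermis (3.08 ± 0.52, limma adjusted p = 0.0023), and 3.72 without dermis replicate 2. It held 79.8% ± 0.59 of the EphB sum in epidermis and 23.6% ± 20.1 in dermis, where replicate 2 stood apart at 46.6% and the mean without it was 12.0%. The class sum was 48.9 ± 5.26 TPM in dermis and 109 ± 13.5 TPM in epidermis. Of the other EphB receptors, 1 was lower, 2 did not pass and 1 was not tested. The called share of the 4 tested EphB receptors was 25.0% higher and 25.0% lower, against 17.0% and 39.3% of all tested genes.

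Ephb4, the venous receptor for ephrin-B2, stood at 11.9, 10.6 and 13.0 TPM in dermis and 3.29, 2.37 and 4.81 TPM in epidermis (-1.55 ± 0.25, limma adjusted p = 0.0020). Ephb3 stood at 16.5, 9.78 and 23.6 TPM in dermis and 13.6, 14.2 and 9.99 TPM in epidermis, with overlapping groups (-0.31 ± 0.33, limma adjusted p = 0.45). Ephb2 stood at 7.16 to 9.46 TPM in dermis and 3.41 to 8.71 TPM in epidermis and did not pass (-0.46, adjusted p = 0.25). Ephb1 reached 1.12 TPM in 1 dermis library and was not tested.

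**Figure D3:**
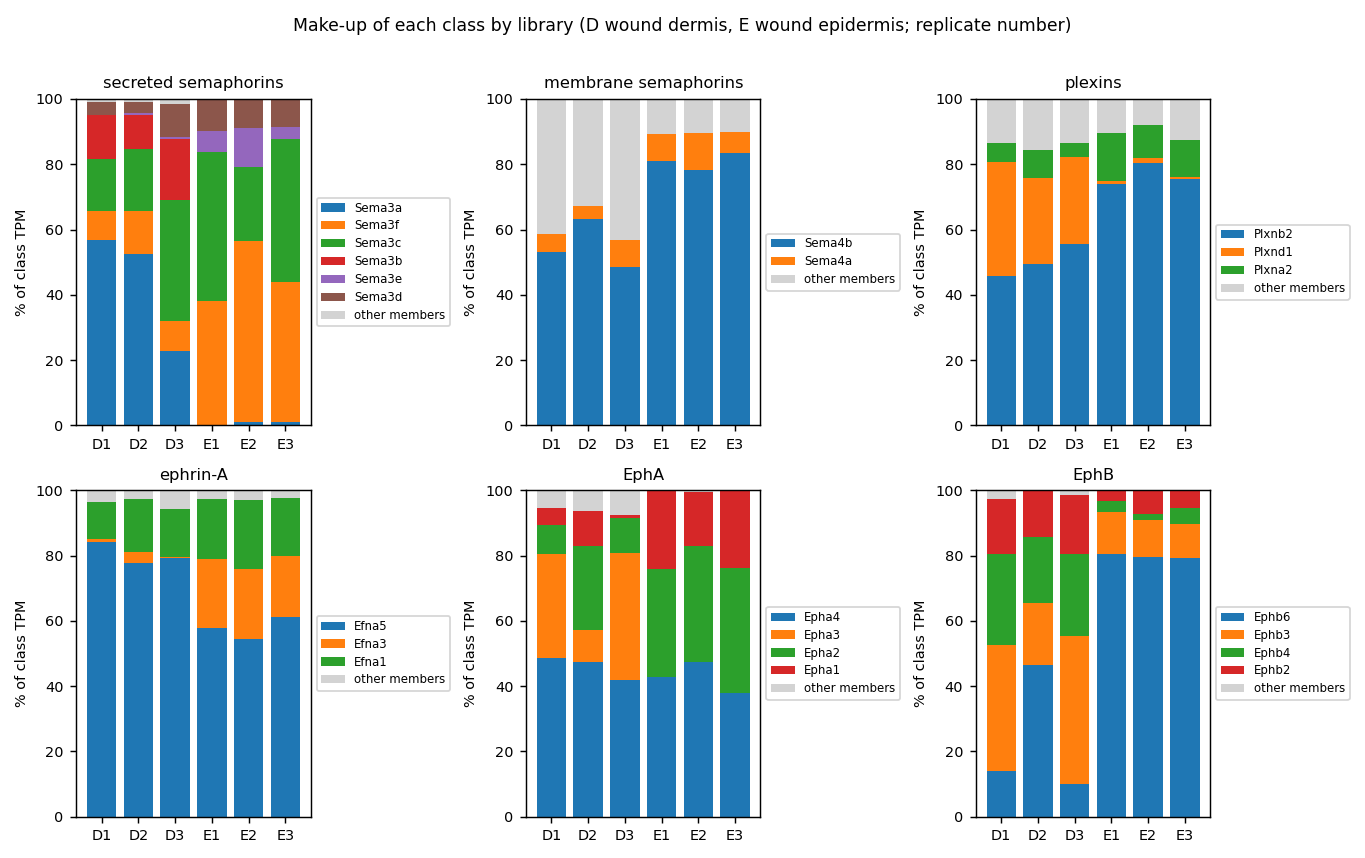
Share of each class's summed TPM held by its members in each library, for the semaphorin, plexin, ephrin-A and Eph classes, with wound dermis (D) and wound epidermis (E) bars by replicate number and members that never reach 10% pooled in grey. Ephb6 takes about 80% of the EphB bars in all epidermis libraries, and Epha3 is missing from the epidermis bars of EphA.

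Both tested Slit ligands, which repel axons and other migrating cells, were lower in epidermis, against 39.3% of all tested genes. Neither reached 1 TPM in any epidermis library, so both entered the test through the dermis libraries alone. Setting their count against that share therefore says little about the class. Slit3 stood at 10.7, 12.6 and 13.3 TPM in dermis and 0.02, 0 and 0.06 TPM in epidermis (-3.68 ± 0.18, limma adjusted p = 1.3e-05). Slit2 stood at 6.5, 7.77 and 11.5 TPM in dermis and 0.32, 0.15 and 0.29 TPM in epidermis (-2.90 ± 0.24, limma adjusted p = 8.4e-05). Slit1 never exceeded 0.96 TPM, overlapped between the tissues and was not tested. The class sum was 21.3 ± 3.43 TPM in dermis and 0.90 ± 0.35 TPM in epidermis.

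Of the Robo receptors, Robo2 stood at 27.6, 34.1 and 22.2 TPM in dermis and 1.08, 2.02 and 1.03 TPM in epidermis (-3.61 ± 0.26, limma adjusted p = 4.7e-05). Robo4, a receptor of endothelial cells, stood at 20.0, 10.1 and 9.03 TPM in dermis and 0.02, 0 and 0.15 TPM in epidermis (-3.65 ± 0.30, limma adjusted p = 9.3e-05). The 7 endothelial markers summed to 409, 312 and 261 TPM in dermis replicates 1 to 3. Of these, 6 were highest in replicate 1, led by Pecam1 at 169, 79.6 and 63.2 TPM, while Cldn5 was lowest there at 66.9, 87.4 and 84.0 TPM. Pericyte and smooth muscle markers summed to 7364, 5594 and 3639 TPM in the same libraries, most of it Rgs5 at 7141, 5465 and 3448 TPM. The other markers of that list were lowest in replicate 2. Acta2 stood at 172, 95.8 and 142 TPM and Tagln at 36.0, 21.9 and 36.6 TPM. Cspg4 stood at 6.21, 5.99 and 6.74 TPM and Myh11 at 8.18, 5.29 and 5.54 TPM. The part of either cell type in the Robo4 values was not tested. Robo1, a receptor for Slit2, stood at 5.90, 6.26 and 5.95 TPM in dermis and 5.37, 4.83 and 5.44 TPM in epidermis. These libraries did not overlap, yet the difference was small and did not pass (-0.18 ± 0.18, limma adjusted p = 0.42), and under quantile normalization it turned to 0.49 (adjusted p = 0.049). Robo1 held 13.2% ± 2.58 of the Robo sum in dermis and 78.6% ± 6.98 in epidermis. Robo3, which lies 0.55 kb from Robo4 on chromosome 9, was listed at 0 in all 6 libraries.

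Netrin 1, encoded by Ntn1, stood at 7.77, 5.38 and 6.45 TPM in dermis and 0.03, 0.02 and 0.03 TPM in epidermis (-2.86 ± 0.19, limma adjusted p = 3.3e-05). Ntn4, which encodes a netrin of basement membranes, stood at 1.28, 1.14 and 2.80 TPM in dermis and 0.10, 0.15 and 0.14 TPM in epidermis (-1.23 ± 0.25, limma adjusted p = 0.0047), and did not pass under quantile normalization (-0.35, adjusted p = 0.34). Both netrins were thus under 0.2 TPM in all epidermis libraries.

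The guidance genes that were higher in epidermis were set beside the keratinocyte markers, since dermis replicate 2 held both. For Efna3, Ephb6 and Epha1, that library stood at 27.6%, 27.9% and 25.8% of the epidermis mean, and the differentiated keratinocyte markers stood at a median of 23.9% there. Dermis replicate 2 was the highest dermis library for 6 of the 10 genes. Replicate 1 was the highest for Epha4, and replicate 3 for Efna4, Sema3e and Sema4a. The same count over all genes was not made. Sema4b reached 51.1% in dermis replicate 2, and 29.7% and 22.1% in dermis replicates 1 and 3. In those 2 libraries the differentiated keratinocyte markers were at 1.13% and 0.66% and the basal ones at 15.0% and 3.03%. Epha1 stood at 15.6%, 25.8% and 2.95% in dermis replicates 1 to 3, beside basal keratinocyte markers at 15.0%, 39.6% and 3.03%. These are medians of markers that differed. In dermis replicate 1, Krt5 stood at 209 TPM and Krt15 at 2.81 TPM, against epidermis means of 1394 and 479 TPM. Epha2 stood at 16.3%, 36.6% and 19.2% in dermis replicates 1 to 3. Sema4a stood at 28.4%, 31.45% and 34.7%, and Sema3e at 3.20%, 37.4% and 55.0%. Epha4, Sema4d and Efna4 stood at 40.8% or more in every dermis library. How far epidermal RNA set the dermis levels of these genes was not tested.

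**Figure D4:**
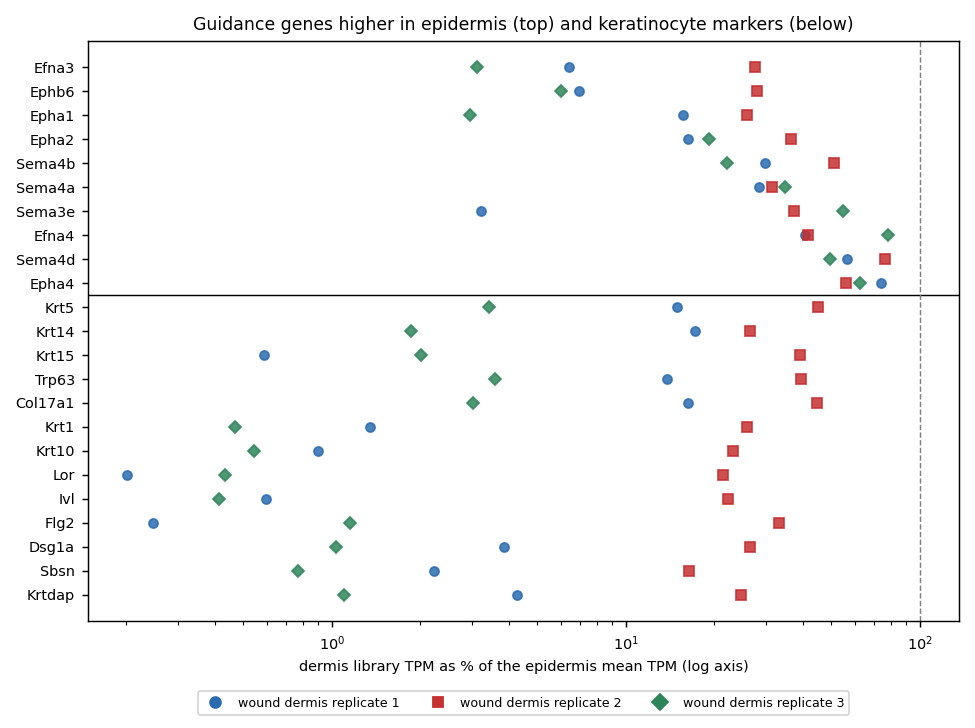
TPM of each wound dermis library as a percent of the epidermis mean, on a log axis, for the 10 guidance genes higher in epidermis (above the line) and 13 keratinocyte markers (below it). Dermis replicate 2 lies to the right of the other dermis replicates for all 13 markers and for Efna3, Ephb6 and Epha1, while for Epha4, Sema4d and Efna4 the 3 libraries lie between 40.8% and 78.1%.

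A list of guidance receptors and ligands outside these families, such as the netrin and UNC5 receptors, held 18 genes. By symbol 17 were found in the mouse table, without Ntn3, and 10 were tested. Of these 1 was higher in epidermis and 4 were lower, with a median log2 fold change of -0.35. Over all tested genes 17.0% were higher and 39.3% lower, so these counts lay near the background. Flrt3, a membrane ligand of UNC5 receptors, had means of 70.7 TPM in epidermis against 19.6 TPM in dermis (1.97 ± 0.40, limma adjusted p = 0.0050). Unc5b, a netrin receptor of endothelium, had means of 0.41 TPM in epidermis against 3.36 TPM in dermis (-1.63 ± 0.17, limma adjusted p = 0.00026). Unc5c, Flrt2 and Rgma were the other genes that were lower. Dcc, the classical netrin receptor, did not exceed 0.02 TPM in any library.

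A second list held 37 effectors that act inside the cell downstream of these receptors, of which 33 were tested, 6 were higher in epidermis and 15 lower, with a median of -0.37, also near the 17.0% and 39.3% of all tested genes. Dpysl2, a mediator of Sema3a signalling that binds tubulin, had means of 1104 TPM in dermis against 53.5 TPM in epidermis (-4.44 ± 0.33, limma adjusted p = 5.7e-05), and its relative Dpysl3 fell by 4.90 on the log2 scale. Chn1, a GTPase-activating protein that acts downstream of EphA4, stood at 10.4 to 13.8 TPM in dermis and was listed at 0 in every epidermis library. Tiam1, an activator of the GTPase Rac, rose by 2.96 (2.62 to 25.9 TPM, dermis to epidermis), Ngef, an exchange factor that binds EphA4, by 2.17 (0.62 to 5.95 TPM), and Limk2, a kinase of the actin-severing protein cofilin, by 2.19 (27.5 to 125 TPM). Both medians lay close to the -0.42 of all tested genes.

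Positions of the leading genes are those of the mm10 build from GENCODE M21, where all are protein-coding. Sema3a lies on chromosome 5 from 13125414 to 13602565, Nrp1 on chromosome 8 from 128358604 to 128503363, and Plxnd1 on chromosome 6 from 115954811 to 115995005. Ephb6 lies on chromosome 6 from 41605482 to 41620509 and Epha1 on the same chromosome from 42358487 to 42373268, a gap of 738 kb. Efna3 lies on chromosome 3 from 89313899 to 89322965, Efna5 on chromosome 17 from 62604184 to 62881317, and Sema4b on chromosome 7 from 80186841 to 80226527. Sema3b and Sema3f lie 72.3 kb apart on chromosome 9 with 3 protein-coding genes between them, and the first was lower in epidermis while the second did not pass. Sema3d, Sema3a and Sema3e follow each other on chromosome 5 with gaps of 537 kb and 423 kb, and of these Sema3a was lower, Sema3e higher and Sema3d did not pass.

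**Figure D5:**
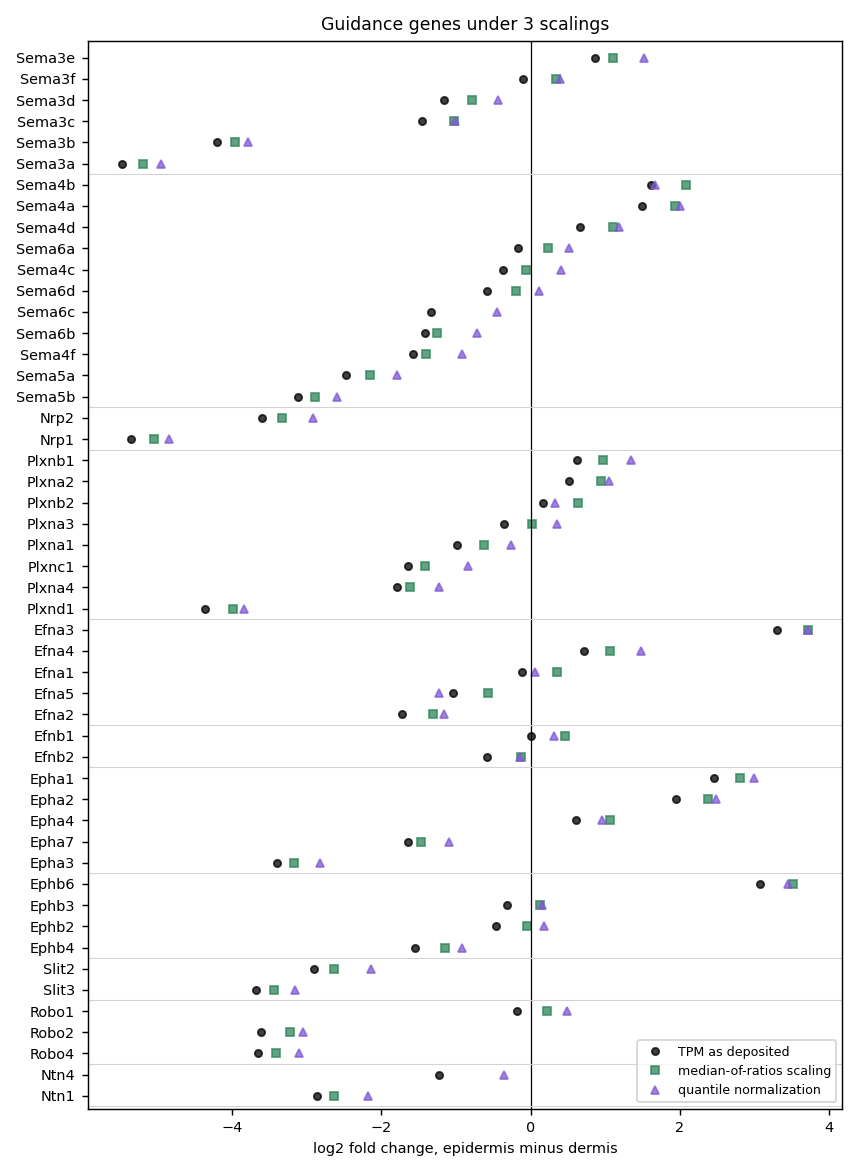
Log2 fold change of epidermis over dermis for the 50 guidance genes tested with TPM as deposited (circles), scaled by median of ratios (squares, 48 genes, without Ntn4 and Sema6c) and quantile normalized (triangles). Both rescalings shift most genes to the right, and the sign changes for 9 genes that did not pass, such as Robo1, Sema3f and Efna1, and for no called gene that has a value (34 of 36 under median of ratios, 36 under quantiles).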

How the data were processed

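The mouse table holds TPM for each library, which the authors deposited. Bowtie 1.0.0, RSEM 1.2.31 and the builds mm10 and Rnor_6.0 are named per the submitters' processing notes. For the annotation and settings, the sources used here give nothing. TPM is a share of each library, so abundant genes that differ shift all others, and depth is unknown. The labels' protocols mention more than one RNA input and read length without assigning them to libraries, so neither could serve as a batch. The libraries were made by tagmentation and no strand setting is stated, so reads from overlapping antisense genes may not be separable.

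Symbols were paired with 49289 of 49548 mouse genes by Ensembl identifier, and biotypes and positions were taken from GENCODE M21. Rat identifiers could not be paired with names, so rat is not analysed here. Genes reaching 1 TPM in 3 or more of 6 libraries entered limma 3.58.1 (R 4.3.3) on log2(TPM + 1), with the mean-variance trend, Benjamini-Hochberg adjusted over 15982 genes. A fold change on this scale understates low genes. The genes and lists were chosen with earlier results of these data known. Values in each library are given for called genes averaging 5 TPM or more in the higher tissue (at most 30, by size of change), for those averaging 10 TPM or more that did not pass and for the most abundant gene of each class, with some others added. Other pseudocounts, filters, scalings, limma without the trend, a replicate block and leaving out each library were tried. The shares of class TPM are descriptions.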

Additional observations from a re-analysis of the deposited data

How the results depend on the processing

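Of the 36 called guidance genes, 6 of 10 higher and 20 of 26 lower kept their call in every alternative that tested them, with the tested genes held fixed where a library was left out; the 4 higher genes that did not were Epha4, Efna4, Sema4d and Sema3e. With each library left out, 6 to 8 were higher and 7 to 26 lower; the low counts arise where a dermis library was left out and the filter applied anew, since a gene of dermis alone then cannot reach 3 libraries, and with the tested genes held fixed 23 to 26 were lower. Over all genes, 1943 to 2791 were then higher and 3256 to 6406 lower, and of the other pathway genes 5 to 7 were higher and 10 to 18 lower, against 7 and 19. A filter of 5 TPM gave 17 lower guidance genes and 12 lower pathway genes, with fewer genes tested. Quantile normalization gave 11 lower pathway genes. Median-of-ratios scaling put 4374 of all genes higher in epidermis and quantile normalization 4694, against 2721, and moved the all-gene median from -0.42 to -0.01 and 0.08. Robo1 reversed to 0.49 under quantile normalization, and the cause was not tested.

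The labels do not say that same-numbered libraries of both tissues share an animal, so the numbers were not taken as pairs. Same-numbered libraries deviated from their group means with correlations of -0.14, 0.09 and 0.19 across genes, and the other combinations with -0.20 to 0.12. With 3 libraries per tissue these correlations cannot tell whether animals were shared. With the replicate block 7 guidance genes were higher and 26 lower, and 2464 and 5940 of all genes: Efna4, Epha4, Sema3e and Efnb2 did not pass (adjusted p = 0.081, 0.085, 0.069 and 0.069) and Sema3d did (0.043). Levels near 1 TPM cannot be judged further, since depth is unknown.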
